A study of Mus musculus with 12 samples.

Results

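The comparison described here is between 3 libraries of mouse epiblast-like cells (EpiLCs) exposed to 100 nM bisphenol A (BPA) and 3 libraries of untreated EpiLCs. These 6 libraries were chosen by their sample titles, out of 12 in the series, and the other 6 are primordial germ cell-like cells (PGCLCs) of day 5. All cells carried the C57BL/6 strain label and the genotype Blimp1-mVenus; Stella-ECFP (BVSC), so the fluorescent reporters of Prdm1 and Dppa3 were present in treated and control cells alike. Embryonic stem cells grown in 2i + LIF were moved to EpiLC medium for 48 h. In the exposed group the medium held BPA for 24 h, starting 24 h after seeding. The untreated libraries are described as water controls, and EpiLCs were not sorted before RNA was taken, whereas PGCLCs were sorted for both reporters. Nothing in the labels says that replicates came from separate cultures, so a p-value here measures only how much these libraries vary.

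EpiLCs model the formative epiblast, the short stage in which pluripotent cells lose naive factors and become competent to form germ cells. BPA is a plasticiser that binds oestrogen receptors weakly and oestrogen-related receptor gamma (Esrrg) strongly. The question was whether the exposure had changed the EpiLC transcriptome before germ cells were made from it.

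Counts assigned to genes ranged from 11785338 (BPA replicate 2) to 22029195 (BPA replicate 3), and between 14323 and 15770 genes appeared in a file, each with at least 10 counts. A gene missing from a file (unlisted) was read as 9 counts or fewer, which is at most 0.409 to 0.764 counts-per-million (CPM) depending on the library. Of 16703 genes in any EpiLC file, 13776 were listed in all 6 libraries.

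1 library stood apart. In a principal component analysis of log2 CPM, untreated replicate 3 lay at 71.1 on the first component and the other 5 libraries between -21.7 and -5.87, and this component held 74.3% of the variance. Pearson's r of log2 CPM across genes was 0.944 to 0.960 in the 5 pairs with this library and 0.989 to 0.995 in the 10 pairs without it. Of 9140 genes at 10 CPM or more, 32.3% deviated over 1.5-fold in it from the mean of the other libraries, against 0.0985% to 0.416% in each other library. Without it, distances between treated and untreated libraries (27.5 to 37.4) covered nearly the same range as distances between replicates of 1 group (28.6 to 40.5). Its description label gives another sample number and replicate; the title was used. Counts over gene lists are therefore given with all 6 libraries and with the 5 that remain without it, and the value of a single gene names the set it comes from.

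The deviation of untreated replicate 3 followed transcript length. Its median log2 deviation was 0.82 for transcripts under 1 kb (305 genes), 0.50 for 1 to 2 kb, 0.06 for 2 to 4 kb and -0.50 for those over 4 kb (3678 genes). Across 8850 genes, its deviation correlated with log length at r = -0.73, against -0.37 to 0.45 in the other libraries. With GC content its r was 0.39. That r was 0.51 and -0.54 in untreated replicates 1 and 2 and -0.52, -0.30 and 0.65 in BPA replicates 1, 2 and 3. The 5 libraries without it were thus not free of trends with length and GC. Genes are not independent replicates. The long-transcript genes Atp7a, a copper transporter, and Lmbrd2 were at 1.71 and 3.48 CPM in it, and at 16.0 to 19.8 and 23.5 to 34.8 CPM elsewhere. The metallothionein genes Mt2 and Mt3 were at 58.3 and 36.7 CPM in it, against 15.1 to 24.1 and 10.2 to 15.6 CPM in the other 5. Its share of reads without a gene feature was 4.42%, below the 5.598% to 7.19% of the others. RNA quality was not measured in the files, and its part in this pattern was not tested.

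**Figure D1:**
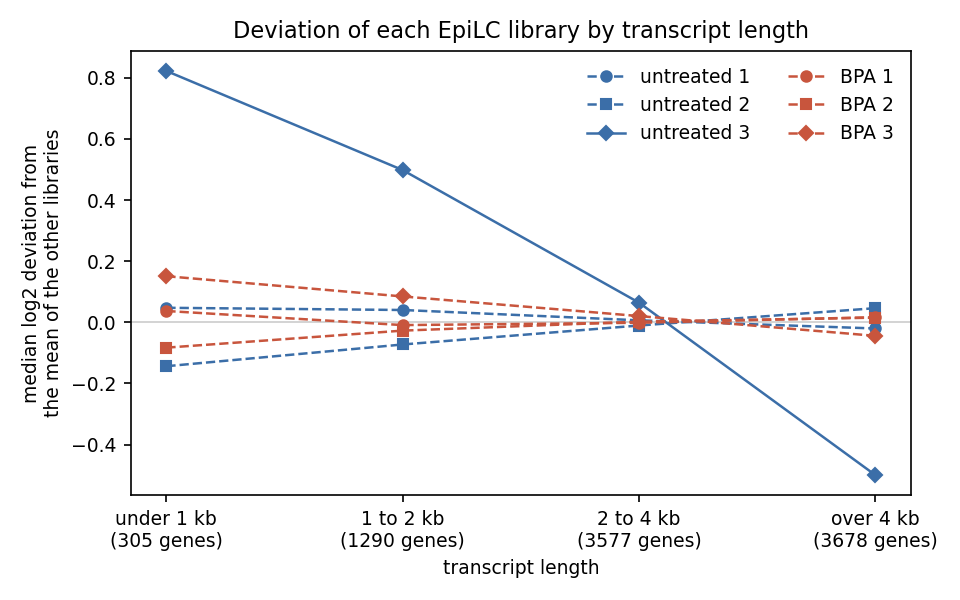
Median log2 deviation of each EpiLC library from the mean of the other libraries (untreated replicate 3 left out of that mean), for genes at 10 CPM or more, by annotated transcript length. Untreated replicate 3 (solid line) runs from 0.82 for the shortest transcripts to -0.50 for the longest, while the other 5 libraries stay between -0.14 and 0.15.

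The main test found no gene changed by BPA in EpiLCs. With 6 libraries, 0 of 15251 tested genes passed the edgeR quasi-likelihood test with Benjamini-Hochberg adjustment (0%), and the smallest adjusted p was 0.943. With 5 libraries, 0 of 15720 passed (0%), and the smallest adjusted p was 0.395. Unadjusted edgeR p-values under 0.05 were held by 118 genes (0.774%) with 6 libraries and by 472 (3.00%) with 5. The threshold gives 762.55 and 786 when nothing changes, so these counts were lower. That shortfall depended on the fit: under limma voom with sample quality weights the counts were 1042 and 794, with 0 genes called in either set. limma voom also called 0 genes in both sets, while DESeq2 called 16 with 6 libraries and 5 with 5; these genes are described below. The biological coefficient of variation was 19.7% with untreated replicate 3 and 7.63% without it, and 30.03% in the 6 PGCLC libraries. In these bulk libraries a smaller number of cells of 1 kind and less RNA per cell cannot be told apart.

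The fitted changes were small. Among 13564 genes listed in all 6 libraries at a mean of 1 CPM or more, 105 had a fitted change over 1.5-fold and 2 over 2-fold with 6 libraries. With 5 libraries, 84 were over 1.5-fold and 3 over 2-fold. The median absolute log2 change was 0.14 with 6 libraries and 0.07 with 5. Adm, the adrenomedullin hormone gene, had the largest fitted change in both sets, at -1.54 ± 0.54 and -1.53 ± 0.60 (log2, SE; edgeR adjusted p = 0.943 with 6 libraries). Its levels were 4.71, 1.15 and 3.07 CPM in untreated and 1.36, 0.997 and 0.728 CPM in BPA libraries, so the groups overlapped.

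The size of effect that could have been missed was read from the 95% interval around each gene's fitted change. The margin on either side of the fitted change, expressed as a fold, had a median of 1.37 with 6 libraries and 1.199 with 5. The interval lay inside a 2-fold change in either direction for 11716 of 15251 genes with 6 libraries and for 12960 of 15720 with 5. It lay inside 1.5-fold for 6902 and 11072 genes. An equivalence test (2 one-sided tests at each bound, Benjamini-Hochberg adjusted over all genes) placed 6564 genes (43%) within 1.5-fold and 12388 (81.2%) within 2-fold with 6 libraries. With 5 libraries it placed 11416 genes (72.6%) within 1.5-fold and 13252 (84.3%) within 2-fold. Leaving out 1 library at a time moved the first of these counts widely: it was 0 without untreated replicate 1, BPA replicate 1 or BPA replicate 2, 3192 without untreated replicate 2 and 2419 without BPA replicate 3. The narrower intervals with 5 libraries rest on 2 untreated libraries. With all 6 kept, 9804 intervals lay inside 1.5-fold with loess offsets for transcript length and GC content, and 11540 under limma voom with sample quality weights, which gave untreated replicate 3 a weight of 0.0857.

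Precision depended on level. For genes at 100 CPM or more, the median margin was 1.27-fold with 6 libraries and 1.12-fold with 5, and 2172 of 2303 and 2323 of 2324 intervals lay inside 2-fold. At 3 to 10 CPM the margins were 1.37-fold and 1.27-fold. Under 1 CPM they were 6.27-fold and 8.27-fold, and 0 of 1505 and 0 of 1974 intervals lay inside 2-fold. A 2-fold change was thus within reach for most genes above 3 CPM and, with unlisted genes as 0, not for those under 1 CPM. With unlisted genes as 9 counts, 13970 of 16233 intervals lay inside 2-fold with 6 libraries and 14993 of 16596 with 5. Both readings fill in counts that were not given, so the width for genes near the floor depends on that choice as well as on depth. The narrowest intervals belonged to genes of the translation and chaperone machinery: Eef1a1, translation elongation factor 1 alpha, was at 13759, 13487 and 14220 CPM in untreated and 13514, 12891 and 13595 CPM in BPA libraries, with an interval of 0.864 to 1.08-fold with 6 libraries. Eef2, Hspa9, Hsp90ab1 and Pabpc1 were the next narrowest.

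**Figure D2:**
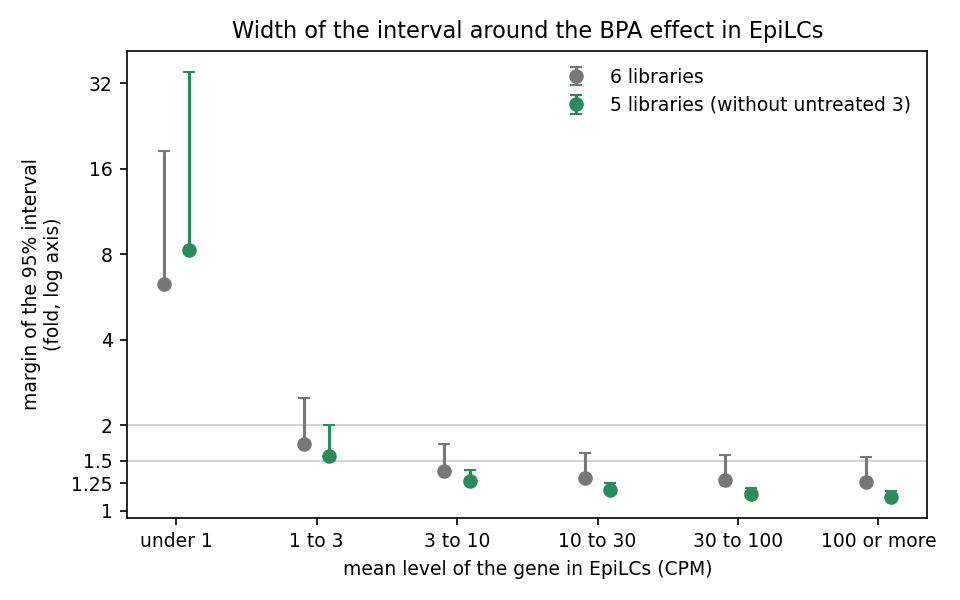
Margin of the 95% interval around the BPA effect in EpiLCs, as a fold on a log axis, by mean level of the gene in CPM; points are medians over genes and upper bars reach the 90th percentile. With 5 libraries (green) the median falls from 8.27-fold under 1 CPM to 1.12-fold at 100 CPM or more, and with 6 (grey) from 6.27-fold to 1.27-fold.

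Markers of EpiLCs were present in every library. All 8 EpiLC markers were listed in every library, with a summed level of 2016 to 2136 CPM in untreated and 2008 to 2173 CPM in BPA libraries. Most of this sum came from Dnmt3a, Dnmt3b and Pou5f1, so it does not by itself name the stage. Against untreated PGCLCs, scaled apart, the untreated EpiLC mean was higher for Dnmt3a (675 against 85.8 CPM) and Pou3f1 (50.9 against 15.5 CPM). It was near for Fgf5 (7.03 against 5.07 CPM) and lower for Otx2 (11.4 against 76.8 CPM) and Sox2 (32.9 against 448 CPM). Naive stem cell markers summed to 88.6 to 101 CPM and 93.4 to 95.3 CPM. Of 7 endoderm markers, 1 was listed in all 6 libraries and Afp, Ttr, Sox17 and Gata6 in none, with sums of 2.49 to 3.28 CPM in untreated and 2.99 to 4.23 CPM in BPA libraries. Other lineages had members listed in all 6 libraries: 3 of 6 mesoderm, 2 of 4 neuroectoderm, 3 of 5 fibroblast, 1 of 4 blood and endothelial and 2 of 4 germ cell markers. Unlisted throughout were Mesp1 (mesoderm), Neurog2 (neural), Col3a1 (stromal), Cdh5 and Gata1 (endothelial and blood) and Prdm14 (germ cell). The sums of untreated and BPA libraries were 6.52 to 9.32 and 7.55 to 9.06 CPM for mesoderm, 48.2 to 58.1 and 47.7 to 52.9 CPM for neuroectoderm, and 19.9 to 21.3 and 19.9 to 21.4 CPM for blood and endothelium. The fibroblast sums (7.98 to 9.01 against 9.10 to 9.60 CPM) and the germ cell sums (16.4 to 17.1 against 17.7 to 17.9 CPM) did not overlap between the groups, and the part of these sums in any result was not tested.

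Pluripotency genes stayed within narrow bounds. Pou5f1 (Oct4), the central pluripotency factor (chromosome 17, 35506018 to 35510772, mm10), was at 553, 493 and 719 CPM in untreated and 474, 459 and 559 CPM in BPA libraries. The groups overlapped, and the log2 change was -0.24 ± 0.16 with 6 libraries and -0.08 ± 0.10 with 5, a 95% interval of 0.811 to 1.11-fold. Sox2, its partner, was at 30.1, 30.01 and 38.4 CPM against 38.4, 37.1 and 36.2 CPM. Without untreated replicate 3, its 2 untreated libraries lay below all 3 BPA libraries, and the log2 change was 0.30 ± 0.07 with 5 libraries and 0.18 ± 0.13 with 6 (edgeR with 5 libraries: unadjusted p = 0.00354, adjusted p = 1.00, interval 1.10 to 1.38-fold). Nanog, a naive and germline factor, was at 20.8, 23.4 and 15.4 CPM against 19.7, 21.8 and 17.4 CPM. Of 12 core pluripotency genes tested, 0 were called, and 12 had an interval inside 1.5-fold with 5 libraries (9 with 6). Of 14 naive genes, 13 lay inside 1.5-fold with 5 libraries and 9 with 6, and their median log2 change was -0.02 with 6 libraries and 0.00 with 5.

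Formative epiblast genes were bounded about as tightly. The de novo methyltransferase genes Dnmt3a and Dnmt3b are strongly expressed at this stage. Dnmt3b was at 704, 698 and 511 CPM in untreated and 711, 703 and 726 CPM in BPA libraries, so only untreated replicate 3 fell outside a narrow band. Its interval was 0.887 to 1.41-fold with 6 libraries and 0.930 to 1.10-fold with 5. Dnmt3a was at 723, 700 and 601 CPM against 689, 679 and 718 CPM. Otx2, a driver of the formative state, was at 12.4, 11.3 and 10.6 CPM against 12.4, 11.4 and 10.2 CPM. Fgf5, the classical marker of this stage, was at 7.33, 6.52 and 7.23 CPM against 6.89, 4.82 and 6.69 CPM. Pou3f1, a neural and epiblast factor, was at 47.9, 39.6 and 65.2 CPM against 51.0, 55.2 and 56.2 CPM, with a log2 change of 0.30 ± 0.10 with 5 libraries (edgeR adjusted p = 1.00) and 0.09 ± 0.19 with 6. Of 17 formative genes, 0 were called, and 16 lay inside 1.5-fold with 5 libraries and 11 with 6.

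Germ cell regulators were low or unlisted in both groups. Prdm1 (Blimp1), the repressor that starts germ cell specification (chromosome 10, 44437177 to 44528501), was at 10.4, 11.3 and 9.76 CPM in untreated and 11.6, 12.05 and 10.7 CPM in BPA libraries. The groups overlapped, and the interval was 0.893 to 1.23-fold with 5 libraries. Dppa3 (Stella), a maternal and germ cell factor that protects methylation, was at 15.1, 15.1 and 21.02 CPM against 17.9, 13.7 and 16.9 CPM, with an interval of 0.886 to 1.30-fold with 5 libraries. Prdm14, the third germ cell regulator, was unlisted in all 6 libraries. Tfap2c was at 5.25, 5.14 and 5.12 CPM against 5.71, 5.82 and 5.82 CPM; the groups did not overlap, and its log2 change was 0.16 ± 0.11 with 6 libraries (edgeR adjusted p = 0.943). Over all tested genes with 6 libraries, BPA lay above untreated with no overlap in 436 tested genes (2.86%) and below in 470 (3.08%). With 5 libraries these were 1061 (6.75%) and 1478 (9.4%). Of 11 early germ cell genes, 0 were called; 1 lay above and 0 below without overlap with 6 libraries, and 1 above and 1 below with 5.

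**Figure D3:**
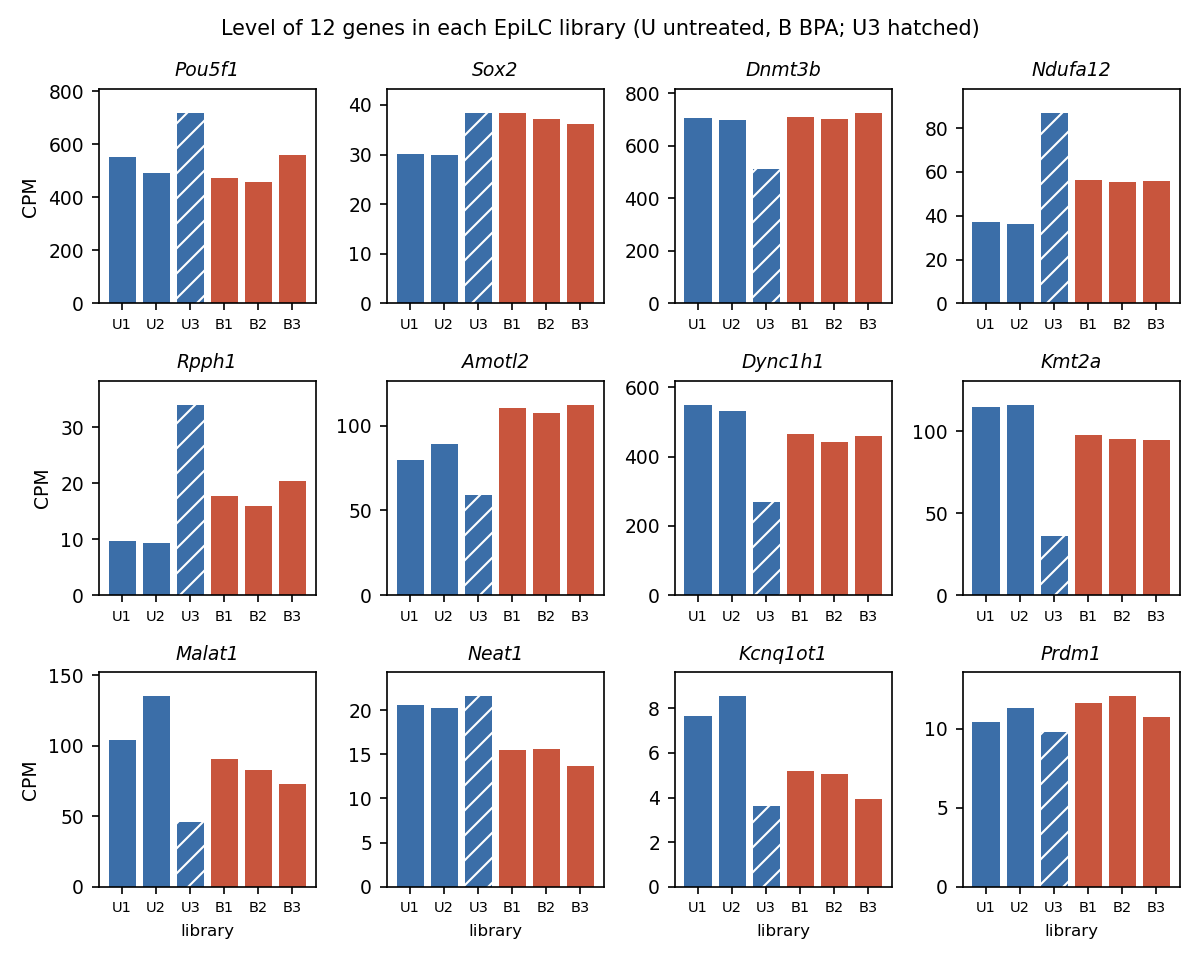
Level in CPM (bars from 0) of 12 genes in each EpiLC library, untreated (U, blue) and BPA (B, red), with untreated replicate 3 hatched. In Ndufa12 and Rpph1 the hatched bar is the highest of all 6 and in Kmt2a and Dync1h1 the lowest, while Neat1 is lower in all 3 BPA libraries than in all 3 untreated ones.

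The receptors best known to bind BPA were unlisted or low. Esr1 (oestrogen receptor alpha), Esrrg and Gper1 (a membrane oestrogen receptor) were unlisted in all 6 libraries. Esr2 (oestrogen receptor beta) was at 0.679 and 0.826 CPM in untreated replicates 1 and 2, unlisted in replicate 3, and at 1.07, 0.997 and 0.773 CPM in BPA libraries. Those levels rest on few counts, and the interval of 0.493 to 3.15-fold with 5 libraries shows that a 2-fold change was not detectable. Among the orphan receptors that were expressed, Esrra, a regulator of mitochondrial genes, was at 32.5, 26.0 and 44.7 CPM against 29.2, 28.9 and 30.8 CPM, and Esrrb, a naive pluripotency factor, was at 9.91, 12.2 and 8.73 CPM against 10.8, 12.4 and 11.5 CPM.

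No target of these receptors passed the test. Greb1, a sensitive oestrogen target in other cells, was at 12.7, 14.0 and 5.94 CPM against 12.1, 12.4 and 14.6 CPM. Ccnd1 (cyclin D1) was at 164, 170 and 145 CPM against 173, 186 and 183 CPM. These groups did not overlap, and the interval with 5 libraries was 0.971 to 1.19-fold. Of 17 oestrogen-responsive genes, 0 were called. Their median log2 change was 0.15 with 6 libraries, with 13 above 0, and 0.00 with 5, with 8 above 0. The aryl hydrocarbon receptor target Cyp1a1 was at 5.43, 6.75 and 6.07 CPM against 7.01, 5.23 and 7.60 CPM, an interval of 0.831 to 1.46-fold with 5 libraries. Of 8 genes of that receptor's list, 0 were called, and 6 lay inside 1.5-fold with 5 libraries and 3 with 6.

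Genes of most stress lists were bounded about as closely. The list of immediate early and dissociation stress genes was bounded less closely. Of its 17 tested genes 0 were called, and 9 lay inside 1.5-fold with 5 libraries and 7 with 6. Nqo1, a quinone reductase induced by Nrf2 (chromosome 8, 107388225 to 107403206), was at 149, 154 and 164 CPM in untreated and 149, 152 and 154 CPM in BPA libraries. Its interval was 0.832 to 1.14-fold with 6 libraries and 0.907 to 1.10-fold with 5. Of 17 Nrf2 targets, 17 lay inside 2-fold and 16 inside 1.5-fold with 5 libraries, and 16 and 12 with 6. Cdkn1a (p21), the cell cycle brake under p53, was at 56.8, 59.1 and 68.2 CPM against 62.4, 62.7 and 66.3 CPM. Of 17 p53 targets 0 were called, and 13 were above 0 with 5 libraries and 11 with 6. With 5 libraries 4 lay above the untreated libraries with no overlap and 1 below, against 6.75% and 9.4% of all genes. With 6 libraries these were 2 and 0, against 2.86% and 3.08%. Among the members above in both sets was Plk2, a stress-induced kinase, at 31.9, 39.6 and 30.1 CPM against 45.1, 40.1 and 45.6 CPM, with a log2 change of 0.28 ± 0.11 with 5 libraries (edgeR unadjusted p = 0.0345, adjusted p = 1.00) and 0.36 ± 0.14 with 6. Among 15 genes of the unfolded protein response and 16 of the integrated stress response, 0 were called; 15 and 14 lay inside 1.5-fold with 5 libraries, and 11 and 11 with 6.

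Metabolic and cell cycle lists also held no called gene. Hypoxia and glycolysis genes had a median log2 change of -0.13 with 6 libraries and -0.12 with 5, and 7 of 26 were above 0 with 6 and 3 with 5. Over all tested genes the medians were 0.00 and -0.01. The members with the smallest p were Adm and Ndrg1, a hypoxia-induced differentiation gene at 2.49, 1.70 and 2.18 CPM against 1.36, 1.496 and 1.05 CPM. The median deviation of this list was 0.17, -0.03 and 0.13 in untreated and -0.003, -0.07 and -0.13 in BPA libraries. Untreated replicate 2 thus lay among the BPA libraries, and untreated replicates 1 and 3 lay above all of them. Cholesterol synthesis (24 genes), DNA replication (24) and mitosis (20) had medians of 0.01, 0.01 and -0.03 with 5 libraries, and 24, 23 and 20 of their genes lay inside 1.5-fold. With 6 libraries the medians were 0.06, -0.01 and 0.08, and 19, 20 and 12 lay inside 1.5-fold.

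Targets of developmental signals held no gene called by the main edgeR test either. In the FGF and ERK list, the feedback phosphatase gene Dusp6 was at 176, 148 and 146 CPM in untreated and 124, 135 and 125 CPM in BPA libraries, without overlap. Its log2 change was -0.29 ± 0.12 with 6 libraries (edgeR adjusted p = 0.943) and -0.35 ± 0.09 with 5 (adjusted p = 1.00). Spry4, another ERK feedback inhibitor, was at 43.1, 35.2 and 31.53 CPM against 28.4, 29.2 and 31.48 CPM, just without overlap. Its log2 change was -0.30 ± 0.14 with 6 libraries and -0.40 ± 0.10 with 5. It did not pass the main edgeR test but was called by another tool among the alternatives. Over the 12 genes of this list the median log2 change was 0.13 with 6 libraries and -0.01 with 5. Of 9 BMP targets, 0 were above 0 with 6 libraries and 2 with 5, and 0 were called. In each set 4 of them lay inside 1.5-fold, and 2 lay below without overlap and 0 above. Of 9 Wnt targets 0 were called, and 7 lay inside 1.5-fold with 5 libraries and 5 with 6. With 5 libraries 4 lay above without overlap and 0 below, against 6.75% and 9.4% of all genes. With 6 libraries these were 2 and 0, against 2.86% and 3.08%. Of 9 Nodal targets, which mark signalling in the epiblast, 9 had intervals inside 1.5-fold with 5 libraries and 7 with 6.

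Genes of the ribosome and mitochondria took opposite directions with and without untreated replicate 3. Of 85 cytosolic ribosomal protein genes, 2 were above 0 with 6 libraries (median log2 change -0.27), and 67 were above 0 with 5 (median 0.06). Oxidative phosphorylation genes went from 3 of 82 (median -0.27) to 61 of 82 (median 0.06). Mitochondrial ribosomal protein genes went from 2 of 76 (median -0.21) to 61 of 76 (median 0.06). Replication-dependent histone genes went from a median of -0.34 (19 genes) to 0.01 (22 genes). In all of these lists, 0 genes were called in either set. With all 6 libraries and offsets fitted to transcript length and GC content, the medians of the first 2 lists were -0.06 and -0.07. Their median log2 deviation in untreated replicate 3 was 0.77 for cytosolic ribosomal protein, 0.83 for oxidative phosphorylation, 0.66 for mitochondrial ribosomal protein and 0.98 for histone genes. In the other 5 libraries it lay between -0.12 and 0.14 for the first 3 lists. Cytosolic ribosomal protein genes held 14.4% of the counts in untreated replicate 3 and 8.41% to 9.48% in the other libraries. Rpl19 was at 914, 855 and 1424 CPM in untreated and 836, 760 and 923 CPM in BPA libraries. Reads of ribosomal protein genes can be split with their processed pseudogenes, so single values of this family are uncertain. The medians above use all genes tested in each set. Taken over the genes tested in both sets, 19 of 40 list medians changed sign when the library was left out.

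**Figure D4:**
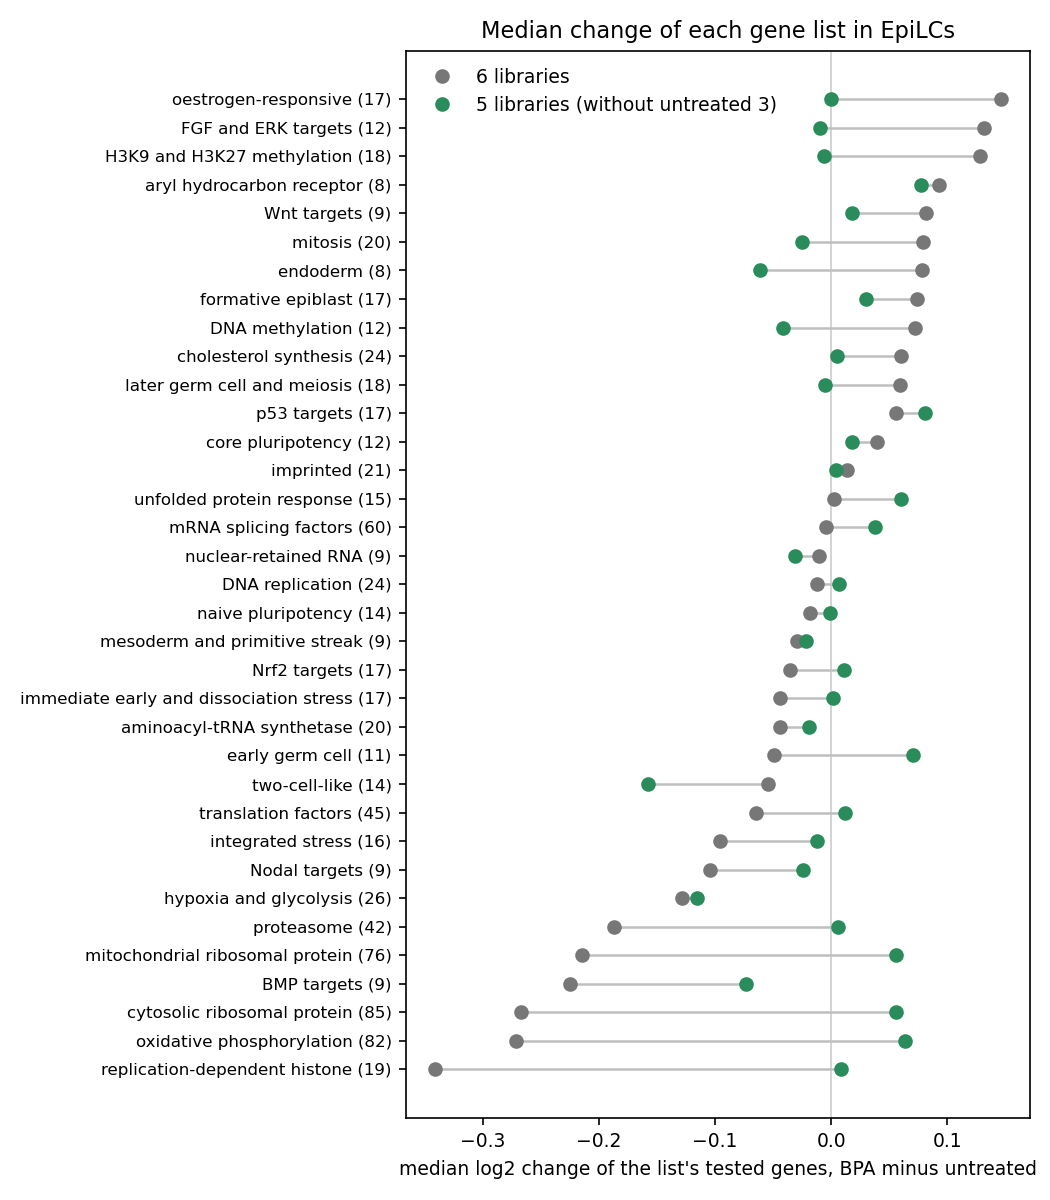
Median log2 change (BPA minus untreated) of each gene list with at least 8 tested genes, with 6 libraries (grey) and without untreated replicate 3 (green); the number of tested genes is in parentheses. Cytosolic ribosomal protein genes move from -0.27 to 0.06 and replication-dependent histone genes from -0.34 to 0.01, and most green points lie within 0.1 of 0.

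Of the 10 genes with the smallest p-values in each set, gene models and pseudogenes passed over, 1 gene, Neat1, was in both. Neat1, the RNA scaffold of nuclear paraspeckles (chromosome 19, 5824708 to 5845478), was at 20.6, 20.2 and 21.6 CPM in untreated and 15.5, 15.6 and 13.6 CPM in BPA libraries. The groups did not overlap, and the log2 change was -0.48 ± 0.11 with 6 libraries (edgeR unadjusted p = 0.00338, adjusted p = 0.943) and -0.46 ± 0.09 with 5 (unadjusted p = 0.00114, adjusted p = 1.00). B3gat1, an enzyme that makes a neural cell surface sugar, was at 1.77, 1.56 and 1.43 CPM against 2.60, 2.83 and 2.73 CPM. Zbtb7a, a transcriptional repressor, was at 9.73, 11.6 and 10.2 CPM against 13.2, 15.4 and 15.6 CPM. Fads3, of the fatty acid desaturase family, was at 2.54, 2.39 and 2.66 CPM against 3.73, 4.32 and 3.50 CPM. In these 3 genes every BPA library was above every untreated one, and none passed the adjusted threshold.

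Without untreated replicate 3, Ndufa12 and Rpph1 headed the same ranking. Ndufa12, a subunit of respiratory complex I (chromosome 10, 94198720 to 94221443), was at 37.3 and 36.3 CPM in untreated replicates 1 and 2 and at 56.3, 55.4 and 55.9 CPM in BPA libraries. In untreated replicate 3 it was at 86.9 CPM, above all BPA libraries. Its log2 change was 0.60 ± 0.07 with 5 libraries (edgeR adjusted p = 0.395) and 0.07 ± 0.34 with 6 (adjusted p = 0.975). Rpph1, the RNA of ribonuclease P (chromosome 14, 50807449 to 50807767), was at 9.73 and 9.32 CPM against 17.8, 16.0 and 20.4 CPM, and at 34.1 CPM in untreated replicate 3. Its log2 change was 0.93 ± 0.12 with 5 libraries (adjusted p = 0.395). Ndufab1, another complex I subunit, was at 24.9 and 26.7 CPM against 32.4, 34.2 and 32.3 CPM, and at 47.1 CPM in untreated replicate 3. In the complete oxidative phosphorylation list, 8 of 82 genes lay above without overlap with 5 libraries and 1 below, against 6.75% and 9.4% of all genes.

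Amotl2, an angiomotin that restrains Yap signalling (chromosome 9, 102716672 to 102733418), kept its direction in both sets. It was at 79.7, 89.2 and 59.1 CPM in untreated and 111, 108 and 113 CPM in BPA libraries, without overlap. The log2 change was 0.54 ± 0.16 with 6 libraries (edgeR adjusted p = 0.943) and 0.38 ± 0.07 with 5 (adjusted p = 1.00). DESeq2 called Ndufa12, Rpph1, Amotl2, Dync1h1 and Dppa5c with 5 libraries. Dync1h1, the heavy chain of the dynein motor, was at 550 and 530 CPM against 465, 442 and 461 CPM, and at 269 CPM in untreated replicate 3. Its log2 change of -0.25 ± 0.06 with 5 libraries became 0.02 ± 0.26 with 6. Kmt2a, a histone H3K4 methyltransferase, and the muscle gene Ttn, both with very long transcripts, were also lowest in untreated replicate 3. Kmt2a was at 115 and 116 CPM against 98.0, 95.3 and 94.96 CPM and at 36.3 CPM in untreated replicate 3.

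Nuclear-retained RNAs made up 3 of the 10 smallest p-values with 5 libraries. Besides Neat1 these were Malat1 (chromosome 19, 5795690 to 5802672), at 104, 135 and 45.9 CPM against 90.9, 82.8 and 73.2 CPM, and Kcnq1ot1, which silences an imprinted cluster on chromosome 7. Kcnq1ot1 was at 7.65, 8.54 and 3.62 CPM against 5.20, 5.07 and 3.91 CPM; it lies antisense within Kcnq1, and whether counting used strand is not stated in the labels. Xist, the X inactivation RNA, was at 9.19, 10.05 and 2.12 CPM against 6.95, 8.39 and 6.32 CPM. Of 9 tested RNAs in the list, 4 lay below without overlap and 0 above with 5 libraries, where 9.4% and 6.75% of all genes did. Neat1, Malat1 and Kcnq1ot1 are among these 4, and the full list was chosen after these values were seen. The count thus reuses the values that drew attention to the list and is no separate support. With 6 libraries 1 lay below and 0 above, against 3.08% and 2.86%. Other members had no such order: Meg3 was at 151, 183 and 98.3 CPM against 165, 172 and 166 CPM, and Tug1, Firre and Pvt1 had log2 changes of -0.02, -0.02 and -0.03 with 5 libraries and 0.16, 0.23 and 0.02 with 6. The median deviation of this list was -0.67 in untreated replicate 3, 0.32 in untreated replicate 2 and -0.35 in BPA replicate 3, so it also varied within both groups.

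Genes near the detection floor supplied the rest of the smallest p-values with 6 libraries. 31 genes were listed in all 3 untreated libraries and in no BPA library, and 5 in all BPA and no untreated library. Apart from Dppa5c, their highest count in any library was 21 or lower, which is close to the 10 counts that a listed gene needs. Fbp2, a gluconeogenic enzyme of muscle, was listed at 0.770, 0.826 and 1.36 CPM in untreated libraries only, and Foxd2os at 0.678, 0.914 and 0.682 CPM in BPA libraries only. The 16 genes that DESeq2 called with 6 libraries were all unlisted in a whole group. When unlisted genes were set to 9 counts, DESeq2 called 1.

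Dppa5c was the exception among them. This gene, annotated as a pseudogene of the pluripotency gene family Dppa5 (chromosome 9, with its paralogue Dppa5a), had 51, 93 and 97 counts in untreated libraries. It was unlisted in all 3 BPA libraries and in all 6 PGCLC libraries. With 9 counts in each BPA library as the floor, untreated EpiLCs were at least 7.92-fold higher. In the edgeR quasi-likelihood test with 9 counts for unlisted genes and 5 libraries, its adjusted p was 0.00631. The same test with all 6 libraries called 0 of 16233 genes, Dppa5c included, with 150 genes at an unadjusted p under 0.05. Dppa5a, the expressed parent gene, was at 1209, 1010 and 2148 CPM in untreated and 1042, 1115 and 1138 CPM in BPA libraries, with a log2 change of -0.02 ± 0.08 with 5 libraries and -0.41 ± 0.27 with 6. Reads of the near-identical copies can be split between them, so the value of Dppa5c is uncertain.

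The same arm of the experiment in PGCLCs gave 2321 called genes of 16752 (13.9%; 1362 higher and 959 lower in the BPA arm). Whether the PGCLC medium held BPA too is not in the labels. Of these genes, 2085 could be tested in the 5 EpiLC libraries. In EpiLCs, 1775 of the 2085 had an interval inside 1.5-fold and 1939 inside 2-fold, and with 6 libraries 1041 and 1770 of 2067 did. The EpiLC interval left out the size fitted in PGCLCs for 1991 of 2085 genes with 5 libraries and 1308 of 2067 with 6, taking the PGCLC value as fixed. These genes were chosen by their PGCLC test, which favours large fitted values there. This count and the interaction counts among these genes reuse the values that chose them, so they are no separate support. Across genes, Pearson's r between the fitted changes of both stages was -0.01 with 6 libraries and -0.07 with 5. The difference between the stages was tested as an interaction: 232 of 17607 genes passed with 12 libraries (1.32%) and 763 of 18884 without untreated replicate 3 (4.04%). Of the 2321 genes called in PGCLCs, the interaction passed for 210 and 704. Over all tested genes, the interaction passed for 83 to 744 without another single library. It passed for 119 without untreated EpiLC replicate 1, and for 83, 113 and 117 without each BPA EpiLC library. Without each PGCLC library of the BPA arm it passed for 120, 117 and 744. Without any of the others the number was within 1.5 times of 232.

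**Figure D5:**
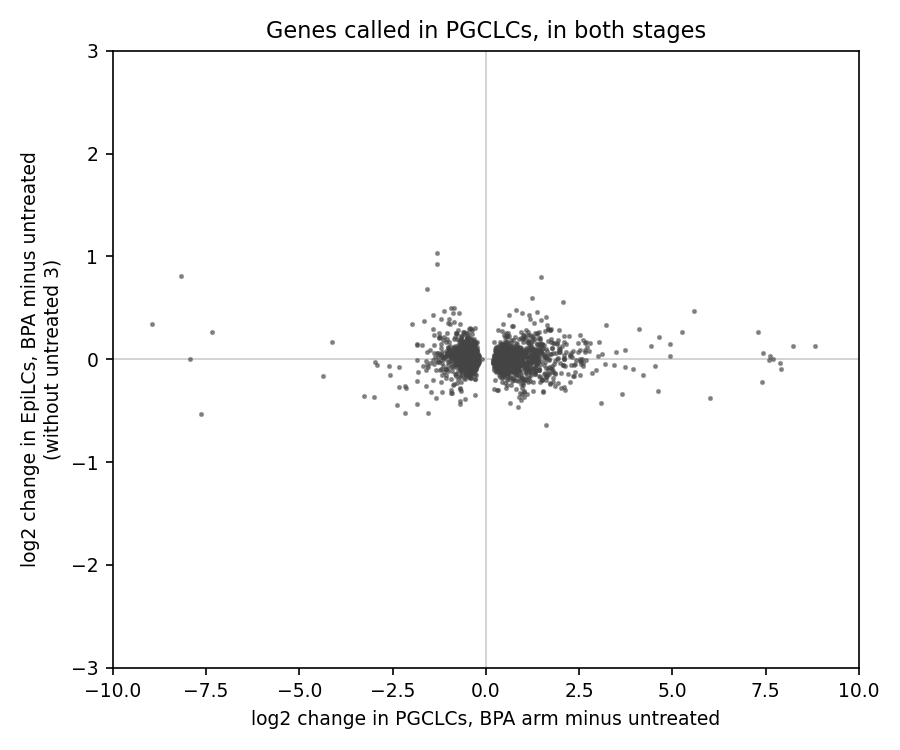
Each point is 1 of 1982 genes called in PGCLCs and tested in EpiLCs at a mean of 1 CPM or more, with its log2 change in PGCLCs (x axis; most values beyond about 7 belong to genes unlisted in a whole PGCLC group) and in EpiLCs without untreated replicate 3 (y axis, a narrower scale). In PGCLCs 463 of these genes were over 2-fold, and in EpiLCs 1 was. The genes were chosen by their PGCLC test, which favours large values on the x axis.

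Named genes showed the contrast, in bulk libraries where a changed mixture of cells cannot be told from a change within cells. Nqo1 rose in PGCLCs by 1.39 ± 0.17 on the log2 scale (edgeR adjusted p = 0.00318), from a mean of 24.4 to 63.8 CPM, and the interaction was 1.41 ± 0.21 with 11 libraries (adjusted p = 0.00601). Meg3, an imprinted RNA, rose by 2.42 ± 0.24 in PGCLCs from 71.8 to 383 CPM (edgeR adjusted p = 0.00176), and its log2 change in EpiLCs was 0.00 ± 0.09 with 5 libraries (interaction adjusted p = 0.00434). Pou5f1 fell by 0.59 ± 0.06 in PGCLCs, from 443 to 294 CPM (edgeR adjusted p = 0.00136), while the interaction missed the threshold (adjusted p = 0.0597 with 11 libraries). Among the largest PGCLC changes, Xlr5b, of an X-linked multigene family whose copies can share reads, was at 1.28 to 3.34 CPM in all EpiLC libraries. In PGCLCs it was unlisted in the BPA arm and at least 6.86-fold higher in untreated cells. The protease gene Plau was at 1.72 to 2.16 CPM in all EpiLC libraries, and at least 4.13-fold higher in the BPA arm of PGCLCs than in untreated PGCLCs, where it was unlisted.

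Whether whole lists differed between the stages depended, for genes of the ribosome, mitochondria and proteasome, on untreated replicate 3. In PGCLCs, 67 of 85 cytosolic ribosomal protein genes were called lower and 1 higher, where 13.9% of all genes were called in either direction. Their median log2 change was -0.41, against 0.06 in EpiLCs with 5 libraries and -0.27 with 6. The interaction passed for 36 of 85 with 11 libraries and for 0 of 85 with 12, against 4.04% and 1.32% of all genes. For oxidative phosphorylation it passed for 18 of 83 and 1, and for the proteasome for 7 of 42 and 0. The shares over all genes given above are the background of each of these counts and of those that follow. Nrf2 targets had 8 of 17 called higher in PGCLCs and 1 lower, and the interaction passed for 6 with 11 libraries and 4 with 12. Imprinted genes had 10 of 22 called higher in PGCLCs, and the interaction passed for 6 and 4. Hypoxia and glycolysis genes had 0 of 26 called in either stage, and the interaction passed for 0 with 11 or 12 libraries.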

How the data were processed

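The deposited files hold raw counts, as whole reads per Ensembl gene and library, without genes under 10 counts. Per the submitters' processing notes, HTSeq, STAR, FastQC and bcl2fastq 2.19.1.403 were used with the mm10 build; the kit was strand-specific per the labels' protocols, and the sources used here do not give the counting's strand setting. The authors' deposited CPM table of EpiLCs served only in 1 alternative. GENCODE M21 (mm10) held 21695 of the 21728 gene IDs, and 1 mitochondrial or Y-linked gene was left out. Rows for reads without a gene (4.42% to 10.7% of each library) and ambiguous reads stayed out of library sizes.

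Groups came from sample titles. Counts, with unlisted genes as 0, passed filterByExpr and TMM scaling and entered the quasi-likelihood test of edgeR 4.0.16 (R 4.3.3), with Benjamini-Hochberg adjustment over all genes tested and a threshold of 0.05. EpiLC libraries were fitted alone (6, and 5 without untreated replicate 3), PGCLCs alone, and the interaction in 1 fit of 12 or 11 libraries. Printed CPM use TMM-scaled library sizes, levels are listed in the order of replicates 1, 2 and 3, and log2 changes are ± SE. The 95% interval is the fitted change ± the t quantile times its SE. Unlisted groups have no SE. The pipeline was tested on simulated data.

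The comparison, the 40 gene lists and the genes named were chosen with earlier results of these data known. Named were the 10 smallest p in each set, a set of fixed genes, up to 2 members per list with the smallest p, the genes highest and lowest in untreated replicate 3, the narrowest intervals, the largest PGCLC changes and genes listed in 1 group. Chosen after their values were seen were Dppa5a, the genes called by DESeq2 alone and the full nuclear-retained list. Alternatives were RLE factors, library size alone, other filters, unlisted genes as 9 counts in edgeR, DESeq2 1.42.0, limma 3.58.1 (voom, quality weights, trend on deposited CPM), the replicate block and each library left out. Unlisted genes as 9 counts in DESeq2, listed genes alone, loess offsets for length and GC, and leaving each library but untreated EpiLC replicate 3 out of the interaction were added after seeing the data. The result of 1 fixed gene is not reported here.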

Additional observations from a re-analysis of the deposited data

Results flagged for a closer look

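The BPA effect differed between the stages in a test of that difference for 3 named genes (edgeR quasi-likelihood interaction of all 12 libraries, PGCLC effect minus EpiLC effect, log2 scale). It was 1.43 ± 0.20 (SE) for Nqo1 (adjusted p = 0.00596), 2.20 ± 0.35 for Meg3 (adjusted p = 0.0116) and 1.61 ± 0.25 for H19 (adjusted p = 0.0100). Each gene was higher in 3 of 3 libraries of the PGCLC BPA arm than in every untreated PGCLC library, while the EpiLC groups overlapped. Meg3 and H19 are imprinted noncoding RNAs. In the same PGCLC arm, endoderm transcripts were also higher, with mean Afp at 33.1 CPM in untreated and 2132 CPM in BPA-arm PGCLCs, and Ttr at 8.87 and 375 CPM. Of 15 endoderm genes, 7 were called higher and 0 lower in PGCLCs, where 13.9% of all genes were called. A changed mixture of cells and a change within cells cannot be told apart in these bulk libraries. The cause was not tested.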

How the results depend on the processing

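Leaving out 1 library at a time, edgeR called 0 EpiLC genes in every case, and the replicate block called 0 with 6 and with 5 libraries. The number of intervals inside 1.5-fold with 6 libraries (6902) ranged from 4636 to 11072 when 1 library was left out, the highest being without untreated replicate 3, and was 11540 under limma voom with sample quality weights, which gave that library a weight of 0.0857. The number placed within 1.5-fold by the equivalence test with 6 libraries (6564) ranged from 0 to 11416 when 1 library was left out, and was 11854 with quality weights and 10199 with loess offsets for length and GC. DESeq2 called 16 genes with 6 libraries, and 1 with unlisted genes as 9 counts. With 5 libraries DESeq2 called 5 genes, 5 with unlisted genes as 9 counts, and edgeR with unlisted genes as 9 counts called 3 (Ndufa12, Rpph1 and Dppa5c). The interaction passed for 232 genes and for 83 to 763 with 1 library left out (763 without untreated EpiLC replicate 3), 898 by DESeq2, 141 by limma voom and 94 with the replicate block. Deviations of same-numbered libraries correlated weakly across genes (r = 0.08, 0.14 and 0.27), against -0.30 to 0.17 for pairs of different numbers. The highest value was that of the replicates numbered 3. The numbers were not read as pairs in the main test, and whether same-numbered libraries share a component was not tested. Leaving out untreated replicate 3 moved 46 of 180 named gene changes by over 1 SE and turned the sign of 41. RLE factors and library size alone each turned the sign of 2 of 40 list medians, all within 0.02 of 0 in the main analysis. Depth and the reading of unlisted genes as 0 limit genes under 1 CPM, and with 3 against 2 libraries the spread rests on few samples. The cause of these shifts was not tested.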

Other observations

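Genes of the two-cell-like state, which switch on in rare embryonic stem cells, had a median log2 change of -0.05 with 6 libraries and -0.16 with 5, and 5 of 14 were above 0 with 6 and 2 with 5. None was called by edgeR. Tcstv1 was at 3.03, 2.57 and 3.68 CPM in untreated and 2.09, 2.16 and 2.09 CPM in BPA libraries, without overlap, and Zscan4c was at 28.6, 34.5 and 31.9 CPM against 27.5, 25.5 and 29.3 CPM. The list's median deviation was 0.24 in untreated replicate 2 and -0.11 to -0.04 in the other 5 libraries, and reads of these multicopy genes can be shared between copies. Splicing factor genes were above 0 in 50 of 60 cases with 5 libraries (median 0.04) and in 29 of 60 with 6. Of 18 genes of H3K9 and H3K27 methylation and 12 of DNA methylation, 18 and 12 had 95% intervals inside 1.5-fold with 5 libraries, and 12 and 8 with 6. Mycn, a growth regulator of pluripotent cells, was at 15.5, 14.5 and 22.5 CPM against 18.8, 18.4 and 20.7 CPM.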
